A study of Mus musculus with 6 samples.

Results

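Icam1 and 9 other genes of adhesion, cytokine and NF-kB feedback function were followed in Nestin-GFP-positive cells of mouse skin: Vcam1, Nfkbia, Nfkb1, Nfkb2, Relb, Tnfaip3, Il6, Lif and Csf1. They are 10 of the 37991 gene rows counted, were found by Ensembl identifier, and all 10 were among the 15035 genes that passed the filter on low counts. The set was chosen by the lower Icam1 values of the mutant libraries, so the Icam1 difference is given as a description with no test. The other 9 were listed for their function, but with earlier results of these data known, so their choice was not independent of the data.

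The cells were sorted from the dermis and the attached subcutaneous white fat of 3-day-old pups. The 3 control pups carried the Nestin-GFP reporter alone, and the 3 mutant pups carried Nestin-GFP, Nestin-Cre and 1 Pdgfra allele with the activating change D842V, labelled "[S]D842V". Nestin regulatory sequence drives both the reporter and the recombinase, and because the labelled control genotype has no Cre, the effects of Cre and of the allele cannot be told apart. Beyond the count of 3 mice of each genotype, nothing in the sources used here gives litter, sex, strain or batch, so p-values measure the spread between these libraries.

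NF-kB is a family of dimeric transcription factors built from Rela, Rel, Relb, Nfkb1 and Nfkb2. Inhibitors of the IkB group hold the dimers in the cytoplasm until a kinase complex marks them for destruction after signals such as TNF, interleukin 1 or bacterial products. The freed dimers bind kappa-B sites in DNA and raise adhesion molecules, cytokines and their own inhibitors, among them Nfkbia and Tnfaip3, which close the loop. In vessels and stroma, Icam1 and Vcam1 hold leukocytes through integrins.

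Gene counts per library ran from 11912469 to 18792939. Levels are CPM, each gene’s share of the counted reads on a common total, with library sizes scaled by TMM, a method that evens out composition, and 3 counts, the limit that a count of 0 allows, came to 0.16 to 0.252 CPM before that scaling. Pericytes, which wrap small vessels, are the cells named in the study's title. All 13 mural cell markers on the list passed the filter, with summed levels of 1527 to 1982 CPM in controls against 1309 to 1753 CPM in mutants. The fat cell gene Adipoq, chosen after its values were seen, had 5.29 to 15 CPM in controls against 9.29 to 61.8 CPM in mutants, the most in mutant replicate 2.

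Promoter sequences of RefSeq (build GRCm38.p6, later than the mm9 build of the counts) were at hand for 7 of the 10 genes, Icam1, Nfkbia, Nfkb2, Tnfaip3, Il6, Lif and Csf1, with 10 start sites in all. A pair of 10-letter motifs was searched on both strands from 250 bases before to 50 bases after each start: the general NF-kB consensus and the RelA consensus, which can overlap each other. The general one was present in 8.46% and the RelA one in 8.38% of all 32851 promoters, and at least 1 of them in 13.9%. Of the 10 windows of these genes 9 held a match, and each of the 7 genes had at least 1. The 250 bases before the start are shown for the genes that the results below turn on, Icam1 and Nfkb2, and for the feedback genes Nfkbia and Tnfaip3, 5′ to 3′, with matches in capitals.
Icam1 (chr9:21015690-21015939, plus strand): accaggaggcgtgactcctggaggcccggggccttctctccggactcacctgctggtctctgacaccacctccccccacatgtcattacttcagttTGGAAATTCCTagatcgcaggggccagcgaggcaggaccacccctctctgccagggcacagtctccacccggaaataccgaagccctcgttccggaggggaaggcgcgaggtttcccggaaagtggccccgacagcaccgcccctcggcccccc
Nfkbia (chr12:55492648-55492897, minus strand): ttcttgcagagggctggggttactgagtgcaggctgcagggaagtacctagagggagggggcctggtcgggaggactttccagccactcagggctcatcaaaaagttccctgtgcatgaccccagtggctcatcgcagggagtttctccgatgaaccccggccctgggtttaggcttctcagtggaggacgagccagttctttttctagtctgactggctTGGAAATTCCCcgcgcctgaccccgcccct
Tnfaip3 (chr10:19015411-19015660, minus strand): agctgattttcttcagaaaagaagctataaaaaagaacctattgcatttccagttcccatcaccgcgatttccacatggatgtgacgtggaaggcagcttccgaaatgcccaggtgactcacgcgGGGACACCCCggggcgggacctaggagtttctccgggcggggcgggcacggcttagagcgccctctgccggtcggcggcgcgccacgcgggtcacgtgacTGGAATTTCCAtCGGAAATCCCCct
Nfkb2 (chr19:46304487-46304736, plus strand): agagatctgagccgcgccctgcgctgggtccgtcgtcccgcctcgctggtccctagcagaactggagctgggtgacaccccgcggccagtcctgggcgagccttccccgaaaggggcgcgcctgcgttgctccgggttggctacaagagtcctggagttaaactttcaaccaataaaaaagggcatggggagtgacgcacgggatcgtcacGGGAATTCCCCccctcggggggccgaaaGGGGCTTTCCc

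Icam1, Nfkbia and Tnfaip3 shared 1 identical decamer, TGGAAATTCC, singled out after the sequences were read, which lay on either strand in only 27 of the 32851 promoters (0.0822%). It began 154 bases before the Icam1 start and 30 bases before the Nfkbia start, and it lay on the other strand of the Tnfaip3 promoter, 24 bases before that start. Il6 had GGGATTTTCC 44 bases before its start. In Csf1, GGGACTTTCC lay on the other strand 154 bases before the start, and in Lif, GGGACGCCCC lay 178 bases before it. A match is a run of letters and not evidence of binding, and no binding was measured here.

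**Figure D1:**
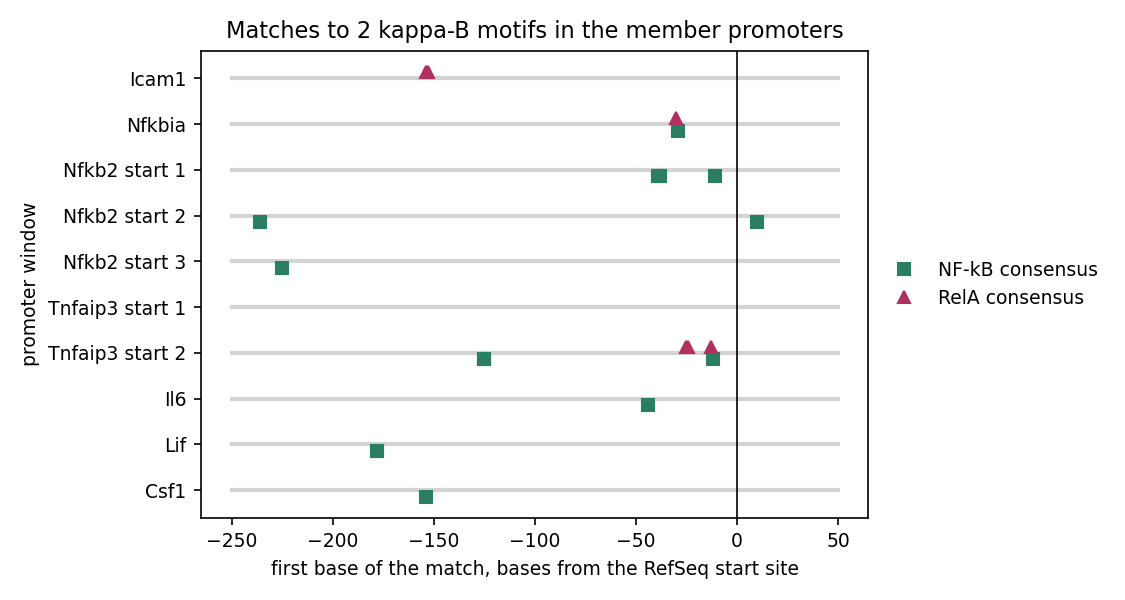
Positions of motif matches (x axis, first base of the match in bases from the RefSeq start site) in the 10 promoter windows of 7 genes (y axis). Squares mark the general NF-kB consensus and triangles the RelA consensus, matches that overlap or lie on both strands sit on top of each other, and every window but 1 of Tnfaip3 holds at least 1 match.

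Icam1 (ENSMUSG00000037405), the immunoglobulin-type receptor that binds leukocyte beta-2 integrins, had 122, 162 and 148 CPM in control replicates 1 to 3 and 48.1, 58.4 and 47.8 CPM in mutant replicates 1 to 3. The groups lay far apart: the lowest control was 2.1 times the highest mutant, while libraries of 1 group differed by at most 1.33 times. The means were 144 ± 20.3 and 51.4 ± 6.03 CPM (SD, n = 3 per group), a log2 difference of -1.49 or 2.81-fold. In reads, the controls held 1911, 1936 and 2314 and the mutants 717, 898 and 905. Among tested genes 71 had a lower log2 fold change, and of the 4165 genes whose mean reached 50 CPM only 4 did. Icam1 was chosen for its fall, so these ranks only describe it. In bulk RNA, fewer expressing cells and less transcript per cell cannot be told apart, and the antisense gene Gm47079, which shares exon sequence with Icam1 in the later annotation, was not counted separately.

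Vcam1 (ENSMUSG00000027962), the adhesion receptor for alpha-4 integrins and the usual companion of Icam1 on activated endothelium, was not called. It had 62.6, 69 and 78.5 CPM in controls against 81.5, 73.4 and 80.1 CPM in mutants. The groups overlapped, and the log2 fold change was 0.16 (95% interval -0.04 to 0.36, edgeR adjusted p = 0.24). That interval does not reach a 2-fold change in either direction.

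**Figure D2:**
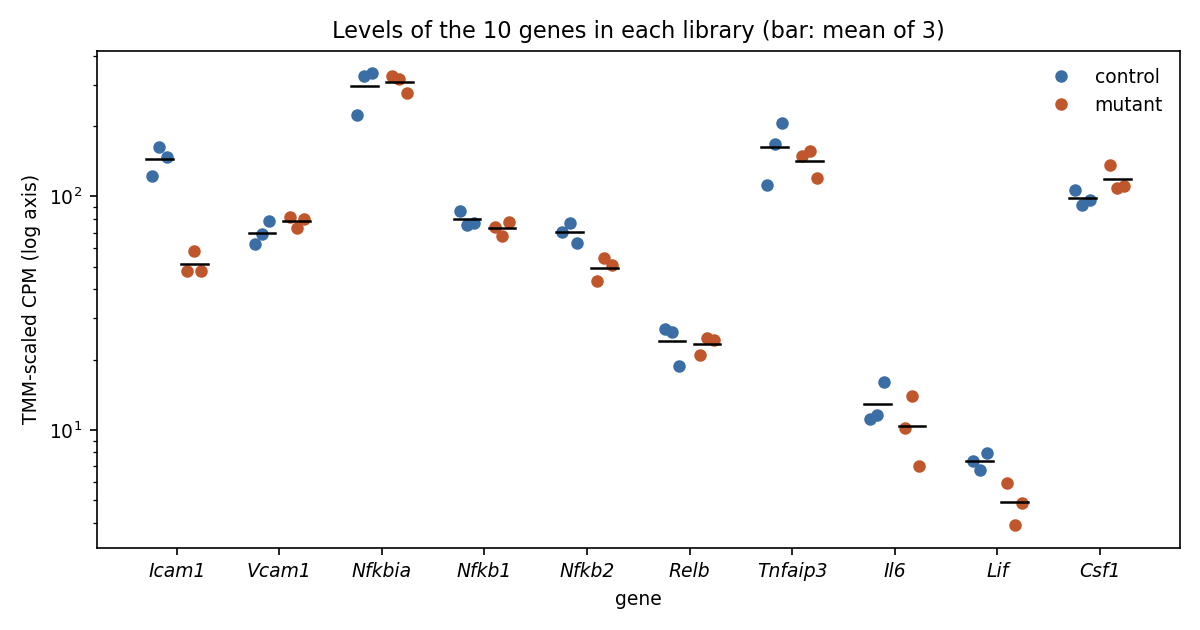
TMM-scaled CPM on a log axis (y) of the 10 genes (x) in each of the 3 control and 3 mutant libraries, with bars at group means. Icam1, Nfkb2 and Lif lie lower in all mutant libraries (Icam1 122 to 162 against 47.8 to 58.4 CPM), Csf1 lies higher, and the other 6 overlap.

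The ligand side of these receptors was followed in the list of integrin partners, of which 6 of 8 passed the filter. Of those, 16.7% were called, against 17.8% of all tested genes. Itga4, the alpha chain that binds Vcam1, fell from 103 ± 5.75 to 68.7 ± 6.44 CPM, a log2 fold change of -0.59 (edgeR adjusted p = 0.00106) and was the 1 call of the list, where 3 genes fell with no filter and 2 without control replicate 3. Itgal and Itgb2, the chains of the leukocyte receptor for Icam1, were low: Itgal had 0.671 to 3.59 CPM in controls against 0.686 to 0.805 CPM in mutants. Their highest values came from control replicate 1, which also held the most leukocyte marker RNA, though Itgb2 is itself on that marker list.

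Among the other immunoglobulin-type adhesion genes, with Icam1 and Vcam1 left out, 3 of 15 tested rose and 1 fell, with a median log2 fold change of 0.11. That is 26.7% called, against 17.8% of all tested genes. Pecam1 of endothelium (0.67), F11r of cell junctions (0.47) and Icam2 (1.01, at 1.28 ± 0.275 and 2.53 ± 0.784 CPM) rose. Ncam1, a neural and mesenchymal adhesion molecule, fell by 0.34 on the log2 scale. Icam2 is named outside the rule for named genes. Icam5, which lies beside Icam1 on chromosome 9, had 1.27 ± 0.379 and 0.77 ± 0.0282 CPM and was not called (log2 fold change -0.70, edgeR adjusted p = 0.177). Leaving out control replicate 1 or 3 left 0 rises, leaving out mutant replicate 3 left 1, and the fall of Ncam1 was lost without mutant replicate 3 (edgeR adjusted p = 0.0597).

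Of the 9 genes other than Icam1, 2 were called, both lower, which is 22.2% against the 17.8% of all tested genes that were called. Mutant libraries all lay below the controls for 2 of the 9, Nfkb2 and Lif, against 18.6% of all tested genes, and all above for 1, Csf1, against 19.2%. These shares are near the background, so the calls are given gene by gene. The median log2 fold change of the 9 was -0.13 and that of all tested genes 0.01.

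Nfkbia (ENSMUSG00000021025), which encodes the inhibitor IkB-alpha and is the classic feedback target of NF-kB, had the highest level of the 10, also per length. Its values were 224, 327 and 337 CPM in controls against 329, 318 and 278 CPM in mutants. Mutant values lay inside the control range, and the log2 fold change was 0.06 (95% interval -0.29 to 0.41, edgeR adjusted p = 0.827). Without control replicate 1, its lowest library, the log2 fold change was -0.12.

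Tnfaip3 (ENSMUSG00000019850), which encodes a ubiquitin-editing enzyme that shuts down the kinase step, varied more than any other of the 10 among controls, with 112, 168 and 207 CPM. The mutants had 148, 157 and 120.0 CPM, again within the control range (log2 fold change -0.20, 95% interval -0.82 to 0.43, edgeR adjusted p = 0.637). Its value hung on single controls: without control replicate 1 it was called lower (-0.42, edgeR adjusted p = 0.0377), and without control replicate 3 the log2 fold change was 0.02. The 2 feedback genes that share the Icam1 decamer therefore had levels that overlapped between groups. Of the 13 tested genes other than Icam1 whose promoter held the decamer, which include Nfkbia and Tnfaip3, 1 rose and 2 fell, with log2 fold changes from -0.47 to 0.40 and a median of 0.05. That count is to be read against the 17.8% called among all tested genes.

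Nfkb2 (ENSMUSG00000025225), which encodes the precursor subunit of the alternative pathway, fell. It had 70.5, 76.9 and 63.4 CPM in controls against 43.6, 54.3 and 50.8 CPM in mutants. Every mutant library was below every control library, and the log2 fold change was -0.50 (95% interval -0.72 to -0.29, edgeR adjusted p = 0.00606), a call kept in all 12 alternatives. In the later annotation its exons overlap 1212 bases of exon of Psd on the opposite strand. The strand setting behind the read counts is not known from the labels, and reads there cannot be told apart. Psd itself had 48.5 ± 2.71 and 42.5 ± 4.71 CPM, a log2 fold change of -0.19 (edgeR adjusted p = 0.18).

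Relb (ENSMUSG00000002983), the usual partner of Nfkb2, had 27, 26.3 and 18.8 CPM in controls against 21, 24.7 and 24.3 CPM in mutants. The groups overlapped, with a log2 fold change of -0.04 (95% interval -0.33 to 0.26, edgeR adjusted p = 0.874) whose sign turned without control replicate 1 (0.05). Nfkb1 (ENSMUSG00000028163), the precursor subunit of the classical pathway, had 86.9, 75.7 and 76.7 CPM in controls against 74, 67.7 and 77.6 CPM in mutants. It was not called (log2 fold change -0.13, 95% interval -0.31 to 0.06, edgeR adjusted p = 0.32).

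The wider list of NF-kB subunits and IkB proteins held 7 further genes, and 3 of them fell, none rose (0 also at an unadjusted p under 0.05 or with DESeq2) and 4 were not called. Their median log2 fold change was -0.37, and 42.9% of these few genes were called, against 17.8% of all tested genes. Rel, a subunit best known in lymphoid cells, had 15.4, 20.5 and 18.3 CPM in controls against 9.4, 10.2 and 8.76 CPM in mutants. Bcl3, an IkB-like co-regulator, went from 14 ± 1.08 to 7.62 ± 0.125 CPM. Nfkbie, which encodes IkB-epsilon, went from 7.88 ± 0.343 to 4.31 ± 0.201 CPM. In each of the 3 the groups were well apart, and their log2 fold changes were -0.93, -0.88 and -0.87 with edgeR adjusted p-values of 0.00102, 0.000902 and 0.00347, calls kept in all 12 alternatives.

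Rela, the main activating subunit, was not called, at 78.3 ± 6.26 and 83.6 ± 5.15 CPM, a log2 fold change of 0.09 (95% interval -0.09 to 0.28). Nfkbib, Nfkbid and Nfkbiz were not called either, with log2 fold changes of 0.20, -0.37 and -0.33. With the 4 listed members Nfkb1, Nfkb2, Relb and Nfkbia included, 4 of 11 fell, while 9.13% of all tested genes did. The list's median over the 11 was -0.33, which moved to -0.51 on leaving out control replicate 1 and to -0.21 on leaving out control replicate 2. Matches to both motifs were found in promoters of Rel, Bcl3 and Nfkbie, and also in 1 of the 3 promoter windows of Nfkbid, which was not called, while the windows of Rela and Nfkbib held neither.

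**Figure D3:**
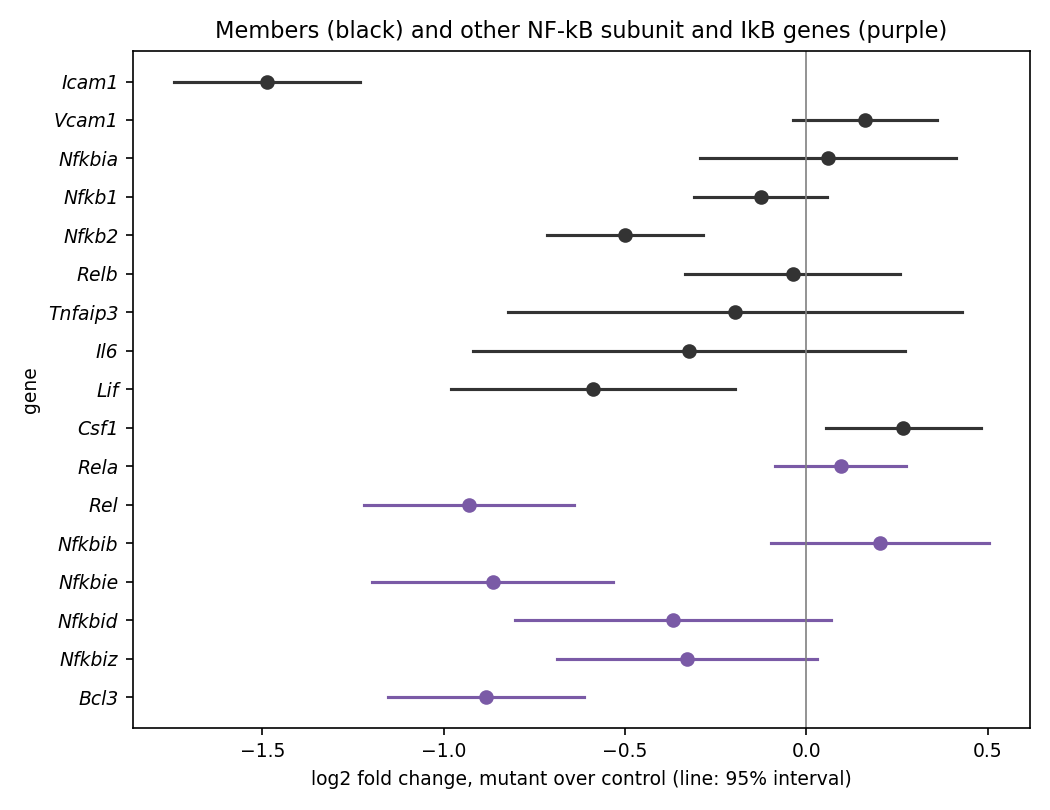
Log2 fold change of mutant over control (x axis, points) with 95% intervals (lines) for the 10 genes in black and 7 other NF-kB subunit and IkB genes in purple (y axis). Icam1, chosen for its fall and shown as a description, is the lowest at -1.49, and its interval is not to be read as a test. Rel, Bcl3 and Nfkbie lie between -0.93 and -0.87. The intervals of Vcam1, Nfkbia, Nfkb1, Relb, Tnfaip3, Il6, Rela, Nfkbib, Nfkbid and Nfkbiz cross 0.

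Il6 (ENSMUSG00000025746), the acute-phase cytokine, was expressed at a low level, with 11.1, 11.6 and 16.1 CPM in controls against 10.2, 14 and 6.97 CPM in mutants. The spread within groups was as wide as the gap between them, and the log2 fold change was -0.32 (95% interval -0.92 to 0.27, edgeR adjusted p = 0.425). With 132 to 251 reads per library, Il6 was covered thinly, and its interval holds both no change and a 1.5-fold fall.

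Lif (ENSMUSG00000034394), a cytokine of the same family that acts through Lifr and Il6st, was the least abundant of the 10, also per length. It had 7.36, 6.71 and 7.94 CPM in controls against 5.91, 3.9 and 4.86 CPM in mutants. All mutants were below all controls, and the fall of 0.59 on the log2 scale (95% interval -0.98 to -0.20) passed the threshold narrowly (edgeR adjusted p = 0.0406). The call was lost in 7 of 12 alternatives (largest adjusted p 0.131, without control replicate 3), each single library left out except mutant replicate 1 among them.

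Csf1 (ENSMUSG00000014599), the growth and survival factor of macrophages, was the 1 gene whose mutant values were all above the controls. It had 107, 92.1 and 96.9 CPM in controls against 137, 108 and 111 CPM in mutants. The gap was narrow, 107 against 108 CPM at its nearest, and the log2 fold change of 0.27 (95% interval 0.05 to 0.48) missed the threshold (edgeR adjusted p = 0.0799). It was called in 3 of 12 alternatives, with no filter (edgeR adjusted p = 0.0244), without control replicate 1 (0.0471) and in the paired fit described at the close.

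Among receptors and relatives of these cytokines, 11.1% of the IL-6 family list below were called, against 17.8% of all tested genes. With 9 tested genes, that share is too coarse to be read as a difference. In the IL-6 family list, with Il6 and Lif left out, 1 of 9 tested genes was called: Lifr, the Lif receptor, rose from 81.6 ± 9.63 to 99.6 ± 5.68 CPM, by 0.29 on the log2 scale (edgeR adjusted p = 0.0484), a call lost in 7 of 12 alternatives (largest adjusted p 0.16). None of the 4 tested genes of the colony stimulating factor list beside Csf1 was called by edgeR, though Csf2rb passed at an unadjusted p of 0.0355 (log2 fold change 0.44), and DESeq2 called 0. With Csf1 counted in, 2 genes rose without control replicate 1, and with no filter 1 rose, 1 fell and the median turned from 0.17 to -0.02. Csf1r, the Csf1 receptor of macrophages, had 57.8 ± 10.5 and 65.2 ± 7.29 CPM, and Csf2ra had 8.25 ± 2.73 and 7.22 ± 1.1 CPM. The log2 fold change of Csf2ra turned from -0.19 to 0.10 without control replicate 1.

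Genes that answer STAT3, the factor downstream of Il6 and Lif, moved both ways: 2 of 12 tested rose and 2 fell, with a median of 0.06. This is 33.3% called, against 17.8% of all tested genes. Bcl6, a transcriptional repressor, had 19.6, 20.8 and 19.4 CPM in controls against 7.72, 6.76 and 7.92 CPM in mutants, a log2 fold change of -1.41 (edgeR adjusted p = 3.75e-05). Socs3, the feedback inhibitor of this pathway, rose from 230.1 ± 30.3 to 333 ± 25.3 CPM, a log2 fold change of 0.53 (edgeR adjusted p = 0.00448). The other 2 calls were Bcl3, already counted above, and Pim1, a kinase named outside the rule, which rose by 0.38. Leaving out control replicate 1 or 3, or mutant replicate 2 or 3, left 1 rise.

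Upstream of NF-kB, of 24 genes of the kinase complex and its adaptors 2 rose, 2 fell and 20 were not called, with a median of -0.05. The 16.7% called is near the 17.8% of all tested genes. Ripk1, the adaptor kinase of the TNF receptor, fell from 38.9 ± 1.59 to 28.0 ± 1.67 CPM, a log2 fold change of -0.47 (edgeR adjusted p = 0.00378), and Birc3, a ubiquitin ligase of the same complex, fell by 0.39 (edgeR adjusted p = 0.0146). Traf1 rose by 0.91 at a very low level (1.27 ± 0.238 to 2.39 ± 0.308 CPM), and Traf6, named outside the rule, rose by 0.42. The rises numbered 0 without any 1 library other than mutant replicate 3, where 1 was left, and Birc3 lost its call when control replicate 3 or mutant replicate 3 was left out (adjusted p at most 0.0687).

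Of 17 tested receptors that feed the pathway 1 rose, 2 fell and 14 were not called, with a median of -0.15. Their called share of 17.6% is near the 17.8% of all tested genes. Il1rap, the shared chain of interleukin 1 family receptors, fell from 55.1 ± 5.78 to 36.5 ± 2.95 CPM, a log2 fold change of -0.60 (edgeR adjusted p = 0.00208). Tnfrsf11a, known as RANK, rose from 11.3 ± 2.69 to 23.9 ± 3.23 CPM (1.08, edgeR adjusted p = 0.00307). Tlr5, the flagellin receptor, fell by 0.60, a call lost in 4 of 12 alternatives (largest adjusted p 0.1001). Without control replicate 1 the median of the list was 0.07 and 2 genes rose.

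Ligands were scarce in the sorted cells. Of 11 matched ligand genes 3 passed the filter, Tnf, Il33 and Il18, and none was called by edgeR (0 at an unadjusted p under 0.05, 0 with DESeq2). With no filter 1 ligand gene was called lower, and the list's median turned from 0.30 to -0.03. Tnf had 4.45 ± 1.08 CPM in controls against 5.87 ± 1.02 CPM in mutants, a log2 fold change of 0.39 (95% interval -0.07 to 0.85, edgeR adjusted p = 0.22), and Il33 had 5.7 ± 0.444 and 6.99 ± 1.76 CPM (0.30, edgeR adjusted p = 0.293). Cd40lg had no read in any library.

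Among negative regulators, with Nfkbia and Tnfaip3 left out, 2 of 17 fell and none rose (0 also at an unadjusted p under 0.05 or with DESeq2), with a median of -0.08. They were Nfkbie, described above, and Itch, a ubiquitin ligase, which fell by 0.34 on the log2 scale (edgeR adjusted p = 0.0128), which passed no longer when control replicate 3 or mutant replicate 3 was left out (adjusted p at most 0.06). The 11.8% called among the 17 compares with 17.8% of all tested genes. With Nfkbia and Tnfaip3 counted in, 4 fell without control replicate 1.

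Further genes known as NF-kB targets were more often lower than higher. Of 23 tested, 5 fell (21.7%, against 9.13% of all tested genes) and 2 rose (8.7%, against 8.63%), and 17 had a log2 fold change below 0, with a median of -0.31. Irf1, an interferon regulatory factor, had 161, 199 and 175 CPM in controls against 110.0, 127 and 108 CPM in mutants, a log2 fold change of -0.63 (edgeR adjusted p = 0.00136). Tnfaip2, a TNF-induced gene, fell by 0.85 from 7 ± 0.249 to 3.9 ± 0.465 CPM (edgeR adjusted p = 0.00604), and Bcl3 and Birc3 were described above. Gadd45b, a stress response gene named outside the rule, fell by 0.33.

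The abundant chemokine target Cxcl1, chosen after its values were seen, was not called, with 57.9, 97.4 and 143 CPM in controls against 73.2, 91.6 and 64.1 CPM in mutants (edgeR adjusted p = 0.551). The 2 rises were Traf1 and Mmp9, both under 3 CPM. Neither was called with any 1 library left out, nor with DESeq2. The falls numbered 8 with no filter or on leaving out control replicate 1, and 3 on leaving out mutant replicate 3. The median was -0.19 on leaving out control replicate 3.

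Over the 6 NF-kB lists together, with the 10 members left out, 4 of 85 tested genes rose and 11 fell. That is 17.6% called, against 17.8% of all tested genes, and the median log2 fold change was -0.08. The calls of these lists were mostly falls, while 8.63% of all tested genes rose and 9.13% fell.

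**Figure D4:**
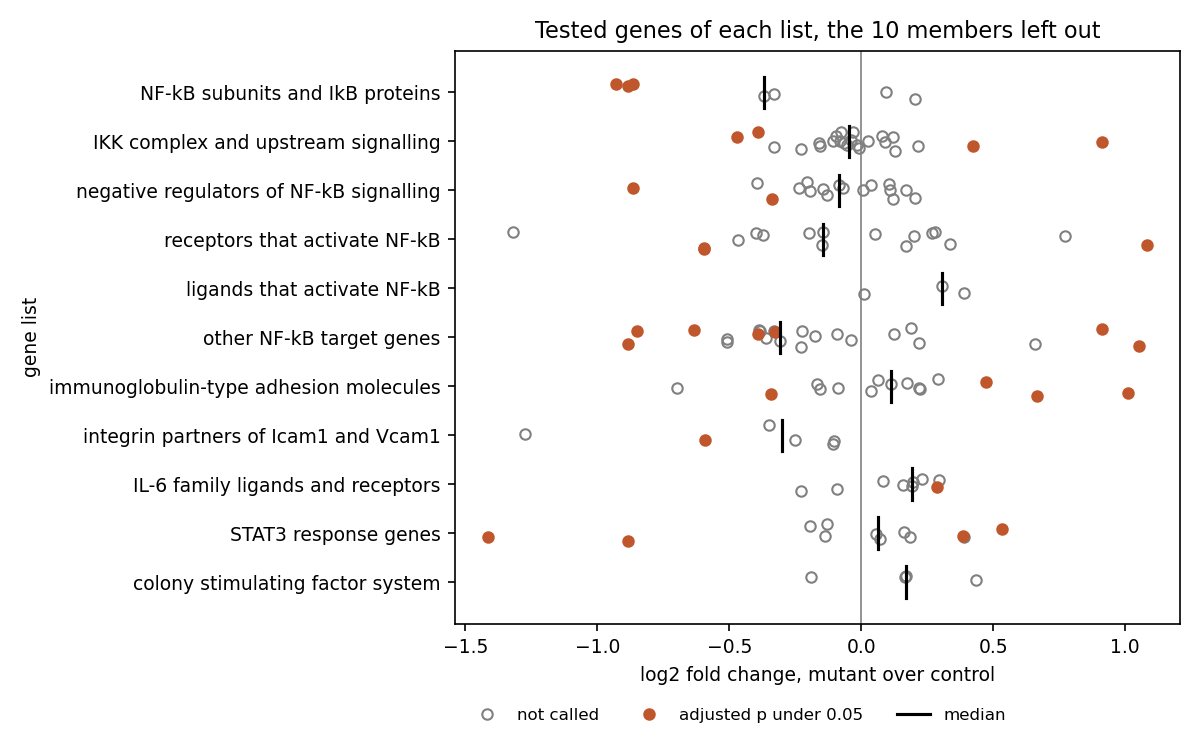
Log2 fold change of mutant over control (x axis) for the tested genes of each list (y axis, points spread vertically for legibility), with the 10 members left out, filled points for an edgeR adjusted p under 0.05 and black bars at list medians. The subunit and IkB list (median -0.37) and the other targets (median -0.31) lie lowest with the integrin partners (-0.30, or -0.12 without control replicate 1), and filled points stand on both sides of 0 in 5 of the 11 lists.

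Levels between genes can be compared only per length, so counts were also scaled to CPM per kilobase of exon, with exon lengths from a later annotation than the one counted. In controls the order was Nfkbia (184 ± 38.9), Icam1 (33.1 ± 4.66), Tnfaip3 (22.5 ± 6.64), Csf1 (18.7 ± 1.41), Nfkb2 (15.3 ± 1.47), Vcam1 (7.9 ± 0.9), Nfkb1 (6.61 ± 0.514), Relb (6.19 ± 1.17), Il6 (5.32 ± 1.13) and Lif (1.69 ± 0.141 CPM per kilobase). The ranges over the 3 controls overlapped between Icam1 and Tnfaip3, Tnfaip3 and Csf1, and along the run from Vcam1 to Il6. In mutants Icam1 ranked 4 at 11.8 ± 1.38 CPM per kilobase, overlapping Nfkb2 (10.8 ± 1.19) and below every library's value for Tnfaip3 (19.6 ± 2.67) and Csf1 (22.5 ± 3.01). Csf1 and Tnfaip3 had changed places, with overlapping ranges. Icam1 was above Vcam1 (8.83 ± 0.488 CPM per kilobase in mutants) in both groups.

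The 5 genes most like Icam1 across the 6 libraries, by Pearson correlation of log2 CPM among 10895 genes whose mean reached 5 CPM, were Dennd4c, Nr4a2, Phf20, Zscan26 and Rbm15, with r from 0.994 to 1.00. These values rest largely on the gap between groups and are a description. The genes differ in size of change: Nr4a2, an orphan nuclear receptor of the immediate early class, had 42.7, 52.2 and 51.2 CPM in controls against 19.1, 22.2 and 18.7 CPM in mutants, a log2 fold change of -1.28, while Phf20 had a log2 fold change of -0.13.

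Other RNA in the sort differed between the groups too. Over all tested genes 8.63% were called higher and 9.13% lower, the shares to set beside the counts of each marker list below. The 21 dissociation and immediate early genes summed to 9928, 14764 and 14766 CPM in controls against 15505 to 17019 CPM in mutants. Of them 3 rose and 4 fell, and control replicate 1 had the lowest sum. Among the members, Icam1, Vcam1, Nfkbia, Tnfaip3 and Il6 also had their lowest control value in that library. Nfkb1, Relb and Csf1 had their highest control value there, and Nfkb2 and Lif lay between. The heat shock gene Hsp90aa1 of the dissociation list fell by 0.75 on the log2 scale. Larger falls in the list, singled out after their values were seen, were those of Hspa1b (127 ± 38.3 to 24.1 ± 2.54 CPM, or -2.40 on the log2 scale with edgeR adjusted p = 0.00314) and Hspa1a (99.8 ± 29.3 to 27.5 ± 5.86 CPM, or -1.86 with edgeR adjusted p = 0.0119), near-identical copies between which reads may be split. Without control replicate 1 the log2 difference of Icam1 was -1.61, and with 1 library left out at a time it stayed between -1.61 and -1.40. The part of tissue dissociation in these values was not tested.

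Endothelial markers summed to 308 to 324 CPM in controls against 394 to 536 CPM in mutants, and endothelium is a known site of Icam1 and Vcam1. Of the 16, 6 were called higher, 4 had a log2 fold change below 0, and the median was 0.58. Lyve1, named by the rule, was the largest at 1.49, while Prox1 was not called (0.31, edgeR adjusted p = 0.251). Leukocyte and macrophage markers overlapped at 185 to 394 and 280 to 345 CPM, with 1 of 15 tested called, Cd79a, lower and under 2 CPM, and Ly6g at 0 in every library. Keratinocyte markers, 5 of 11 called higher (Krt15 0.87), summed to 593 to 895 and 1039 to 1308 CPM, and skeletal muscle markers, 8 of 11 higher (Cdh15 1.14), to 99.3 to 121 and 222 to 325 CPM. Mast cell markers, 4 of 6 higher (Tpsb2 1.24) and 1 lower (-1.03), summed to 84.4 to 102 and 113 to 133 CPM.

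Fibroblast markers, 3 of 12 higher and 2 lower, summed to 69322 to 77258 and 57062 to 70696 CPM, most of it from the collagen genes Col1a1 and Col1a2. Pdgfra (-1.24), named by the rule, is the gene altered in the mutants, and the part of the allele in its fall was not tested. The rises were Clec3b (0.91), Fbln1 (0.52) and Mfap5 (0.43), and the other fall was Dpp4 (-0.59). Mural markers had overlapping sums, with 2 of 13 higher (Kcnj8 1.47), but 7 had a log2 fold change below 0 and the median was -0.06. Glia and melanocyte markers had overlapping sums too, at 336 to 477 CPM in controls and 207 to 350 CPM in mutants. Of these 9 genes 1 was called lower and none higher, 7 had a log2 fold change below 0, and the median was -0.41. The part of any of these cell types in the levels of Icam1 or the other 9 genes was not tested.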

How the data were processed

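RNA of sorted Nestin-GFP-positive cells was sequenced in 3 control and 3 mutant libraries. The authors deposited whole-number read counts per Ensembl gene, and per the submitters' processing notes the build was mm9 and the tools TopHat2 2.0.4, HTSeq 0.5.3, cutadapt 1.1, DESeq2 and FastQC, with no role or order. The 5 rows that name no gene took 36.9% to 41.7% of listed reads and were left out. Symbols were matched for 32919 of 37991 rows with GENCODE M21 and RefSeq tables.

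Counts were filtered with filterByExpr (minimum count 10, minimum total 15), scaled by TMM and tested with edgeR 4.0.16 (R 4.3.3), quasi-likelihood F test, group as the only term, Benjamini-Hochberg adjustment over 15035 genes, threshold 0.05. On simulated counts for 15035 genes, 67, 67 and 66 genes were changed 1.5-fold, 2-fold and 4-fold. The fit recovered 59.7%, 73.1% and 95.5% of them, and 11.1% of its calls were false, above the 0.05 aimed at. The data themselves gave 2670 calls, many more than the genes changed there, so these shares need not hold for them. Replicates within a group were further apart than read sampling gives (chi-square per degree of freedom 4.73 to 13.3).

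Members and gene lists were chosen with earlier results of these data known. Named genes were the 10 members, up to 3 called genes per pathway list by adjusted p (or the 2 most abundant where none was called), 1 per marker list and the 5 most like Icam1. Tnfsf12 matched no row. The gene named for 1 marker list is not reported here. Alternatives were no filter, RLE or upper-quartile scaling, DESeq2 1.42.0, limma-voom 3.58.1, a replicate block and leaving out each library. Intervals and floors cover counting and replicate spread as stated, at the 95% level.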

Additional observations from a re-analysis of the deposited data

How the results depend on the processing

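Of the 9 genes other than Icam1, 2 were called as reported. That count was 1 with upper-quartile scaling and with DESeq2, and 1 to 3 with single libraries left out. Across all genes, 1298 were higher and 1372 lower, and leaving out 1 library gave 658 to 1199 higher and 753 to 1500 lower, with the fewest without mutant replicate 3 (776 and 881 without control replicate 2, 679 and 807 without control replicate 3). With single libraries left out, the log2 fold change ran from -0.12 to 0.16 for Nfkbia, from -0.19 to 0.050 for Relb (0.03 and 0.02 without control replicate 2 and mutant replicate 1), from -0.42 to 0.018 for Tnfaip3 and from -0.40 to 0.10 for Csf2ra, so each of these signs turned. The cause was not tested. Nfkb2, Rel, Bcl3 and Nfkbie kept direction and side of the threshold in all 12 alternatives. Of 563 gene values under alternatives, 513 kept both, 40 lost the call, 4 gained it and 6 turned.

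Same-numbered libraries did not deviate together throughout: their correlations were 0.117, -0.029 and -0.087, and only the first passed the 0.1 set for pairing. Such correlations cannot show whether libraries shared a litter or batch, so the fit without pairing was kept as the main one. With the replicate block, 1328 genes were higher and 1439 lower, 3 of the 9 genes were called, and Csf1 was among them (adjusted p = 0.0323). Control replicate 3 correlated most with mutant replicate 2 (0.158), not with its own number. Among the 10 genes, Il6 and Lif had the lowest counts.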
